A study of Mus musculus with 6 samples.

Results

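The cytosolic ribosomal protein genes were described in cells sorted from mouse small-intestinal crypts through Hopx or through Lgr5. They were chosen by gene symbol: names that begin with Rps or Rpl followed by a number, together with Rplp0, Rplp1, Rplp2 and Rpsa, without the Rps6k kinases and without pseudogenes. The symbol rule matched 85 of the 23565 genes in the count table, and 4 of these that the annotation calls pseudogenes were left out. The remaining 81 genes comprise 32 of the small subunit, 46 of the large subunit and the 3 P-protein genes Rplp0, Rplp1 and Rplp2. Of the 81, 79 passed the filter on low counts and were tested.

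The study used bulk RNA sequencing to compare epithelial cells of both genotypes. One group came from HopXCreER::Rosa26LSL-tdTomato mice, in which the Hopx allele drives a tamoxifen-dependent Cre recombinase, and held 3 libraries of tdTomato-positive cells. The other came from Lgr5eGFP-IRES-CreER::Rosa26LSL-tdTomato mice, in which the Lgr5 allele makes both eGFP and the Cre, and held 3 libraries of cells positive for eGFP and tdTomato. All mice carried the Rosa26 reporter, received 1 mg of tamoxifen and were harvested 16 hours later, and the series states 3 mice per genotype. Ages of the mice are not stated in the labels used. The gate changed with the genotype, so what each contributes cannot be told apart.

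Cytosolic ribosomal proteins are the protein part of the ribosome, which translates messenger RNA: the small subunit holds the message and decodes it, and the large subunit joins the amino acids. The proteins are needed in matched amounts, and many of their messages begin with a run of pyrimidines, the terminal oligopyrimidine or TOP motif, through which mTORC1 and the RNA-binding protein LARP1 control their translation. MYC and RNA polymerase I drive ribosome production in growing cells, and in the crypt the rapidly dividing Lgr5 stem cell is among the cells with a high need for it.

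Library totals ran from 10839306 to 14570555 counts. The edgeR quasi-likelihood test called 1586 of 12439 tested genes at a Benjamini-Hochberg adjusted p of 0.05, 1176 higher and 410 lower in Hopx-CreER cells. The sorted cells differed in makeup. Summed levels of 8 Paneth cell markers were 14930 to 32500 CPM (library-size-scaled counts, with TMM factors) in Hopx-CreER libraries against 1654 to 3239 CPM in Lgr5-CreER libraries, and those of 9 enteroendocrine markers 3386 to 8772 against 189.6 to 329.8 CPM. The sum of 10 Lgr5 stem cell markers was 3448 to 5277 against 10960 to 11420 CPM, and that of 6 proliferation genes 1331 to 1383 against 1739 to 1868 CPM. Epithelial identity markers summed to at least 9038 CPM in every library, and immune markers to at most 3.154 CPM. The 6 measured stromal and endothelial markers summed to 1.02 to 3.636 CPM in Hopx-CreER and 0.0 to 1.555 CPM in Lgr5-CreER libraries. Of these, Col1a1 and Cdh5 were at 0 in every library. Whether these shifts in cell makeup bear on the ribosomal protein genes was not tested. The labels do not say which mouse gave which library, and a number recurs in the names of Lgr5-CreER libraries 2 and 3, so p-values measure only the spread between these libraries.

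Ribosomal protein messages were abundant in both groups. Their mean level over the 6 libraries had a median of 229.8 CPM, and 76 of the 79 tested genes lay above the median of all tested genes, which was 24.8 CPM. Per kilobase of coding sequence, the median was 525 CPM, and the genes lay between 22.7 and 4660 CPM. Rpl41, which encodes the smallest ribosomal protein, from 75 coding bases, was the highest by this measure. Its mean level was 349.5 CPM, against 1644 CPM for Rplp0. The division leaves out untranslated bases, so it can raise genes with a short coding sequence. Also among the highest were Rplp0, the scaffold of the P-stalk that recruits translation factors, at 1729, Rpl13 at 1473 and Rps18 at 1317 CPM per coding kilobase. At the low end stood Rpl13a, then Rpl23a at 48.4 and Rpl22l1, a paralogue of Rpl22, at 59.9 CPM per coding kilobase, with Rps21 at 181 and Rpl27a at 208.

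Some reads lay on near-identical copies of these genes. Of the 81 genes, 73 had at least 1 other gene in the table with a transcript stretch of at least 200 bases at 95% identity or more, and all such copies together held 1.42% as many counts as the genes themselves. Copies held 33.9% as many counts as Rpl21, 15.2% as many as Rpl13a, 11.8% as many as Rpl23a and 5.85% as many as Rpl38, so the levels of these genes are uncertain. Rpl24 had only 18 counts over the 6 libraries, with 5, 2 and 2 in Hopx-CreER and 3, 2 and 4 in Lgr5-CreER libraries, while 187 counts lay on its copies. Rpl3l, a muscle-enriched paralogue of Rpl3, had 0, 0 and 2 counts in Hopx-CreER and 0, 0 and 3 in Lgr5-CreER libraries. These genes are the pair left out of the test.

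The pyrimidine-rich start that defines TOP messages was looked for at the annotated start sites. Windows of 15 bases before and 15 bases from the start are shown for genes of each subunit and for a paralogue pair. They are RefSeq sequences of the build GRCm38.p6, 5′ to 3′ on the gene's strand, and capitals mark an unbroken pyrimidine run that opens with C at the first transcribed base. Rps6 encodes the substrate of the S6 kinases, Rps27 and Rps27l are paralogues, and Rps27l has a second annotated start that is not shown.
Rps6, chr4:86857353-86857382: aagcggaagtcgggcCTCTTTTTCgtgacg
Rps18, chr17:33955651-33955680: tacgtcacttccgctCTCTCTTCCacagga
Rps27, chr3:90213634-90213663: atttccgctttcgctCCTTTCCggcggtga
Rps27l, chr9:66946071-66946100: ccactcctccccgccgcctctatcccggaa
Rpl28, chr7:4792950-4792979: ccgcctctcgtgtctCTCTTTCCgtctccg
Rpl38, chr11:114668565-114668594: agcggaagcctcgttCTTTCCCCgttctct
Rplp2, chr7:141447636-141447665: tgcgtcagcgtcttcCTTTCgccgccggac
Rpl4, chr9:64173372-64173401: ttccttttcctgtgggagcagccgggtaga
Rps6, Rps18, Rps27, Rpl28, Rpl38 and Rplp2 opened with such a run, while the annotated starts of Rps27l and Rpl4 did not. The Rpl4 window has a pyrimidine stretch shortly before its annotated start, and a start annotated a few bases off would miss a run.

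RefSeq start windows matched 61 of the 81 genes. A start with C followed by at least 4 more pyrimidines was found in 13 of the 61 (21.3%), against 3.01% of 27025 genes. In the 300 bases around the start, searched on both strands, CCGGAAG, the core bound by ETS-family factors such as GABP, was present in 25 of 61 (41.0%, against 9.93% of all genes). The pyrimidine element CTTTCC was present in 31 (50.8%, against 29.3%), AAGATGGC, the core of YY1 sites, in 6 (9.84%, against 3.19%), and TATAAA in 7 (11.5%, against 15.7%). A match is a description of the letters at an annotated start and not evidence of binding. Likewise, a missing pyrimidine run at that base does not show that a message lacks a TOP motif. The 13 tested genes with a pyrimidine run at the annotated start had a median log2 fold change of -0.10 (range -0.22 to -0.02). The 46 without a run there had a median of -0.12 (range -0.33 to 0.12), and this split does not separate TOP messages from others.

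No ribosomal protein gene was called between the groups: 0 of 79 were higher and 0 of 79 lower in Hopx-CreER cells by the edgeR test (smallest adjusted p 0.145, for Rpl4). Of all tested genes 12.8% were called, 9.45% higher and 3.3% lower, and of the 913 genes at least as abundant as the median ribosomal protein gene 20.7% were called. The fold changes, given throughout as Hopx-CreER over Lgr5-CreER, were small and mostly negative. Their median was -0.10 on the log2 scale, against -0.03 for all tested genes, and they ran from -0.33 for Rpl36a to 0.18 for Rpl23a. Values below 0 were found for 74 of 79 genes, against 52.8% of all genes. At an unadjusted p under 0.05 stood 1 gene, Rpl4, against 27.3% of all genes. In bulk RNA, fewer cells of a type and less RNA per cell cannot be told apart.

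The precision of the comparison bounds these values. The SE of a log2 fold change ran from 0.098 to 0.299, with a median of 0.14. For 67 of 79 genes the 95% interval lay wholly within a 1.5-fold change in either direction, as it did for 28.3% of all tested genes. It did so for 569 of the 913 genes at least as abundant as the median ribosomal protein gene. Among the 79, the lowest interval bound was -0.87, for Rps27, and the highest 0.58, for Rpl23a. Changes inside those intervals are not distinguished by these libraries. The groups did not overlap for 1 gene in the higher direction, against 18.8% of all genes, and for 1 in the lower direction, against 16.2%.

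**Figure D1:**
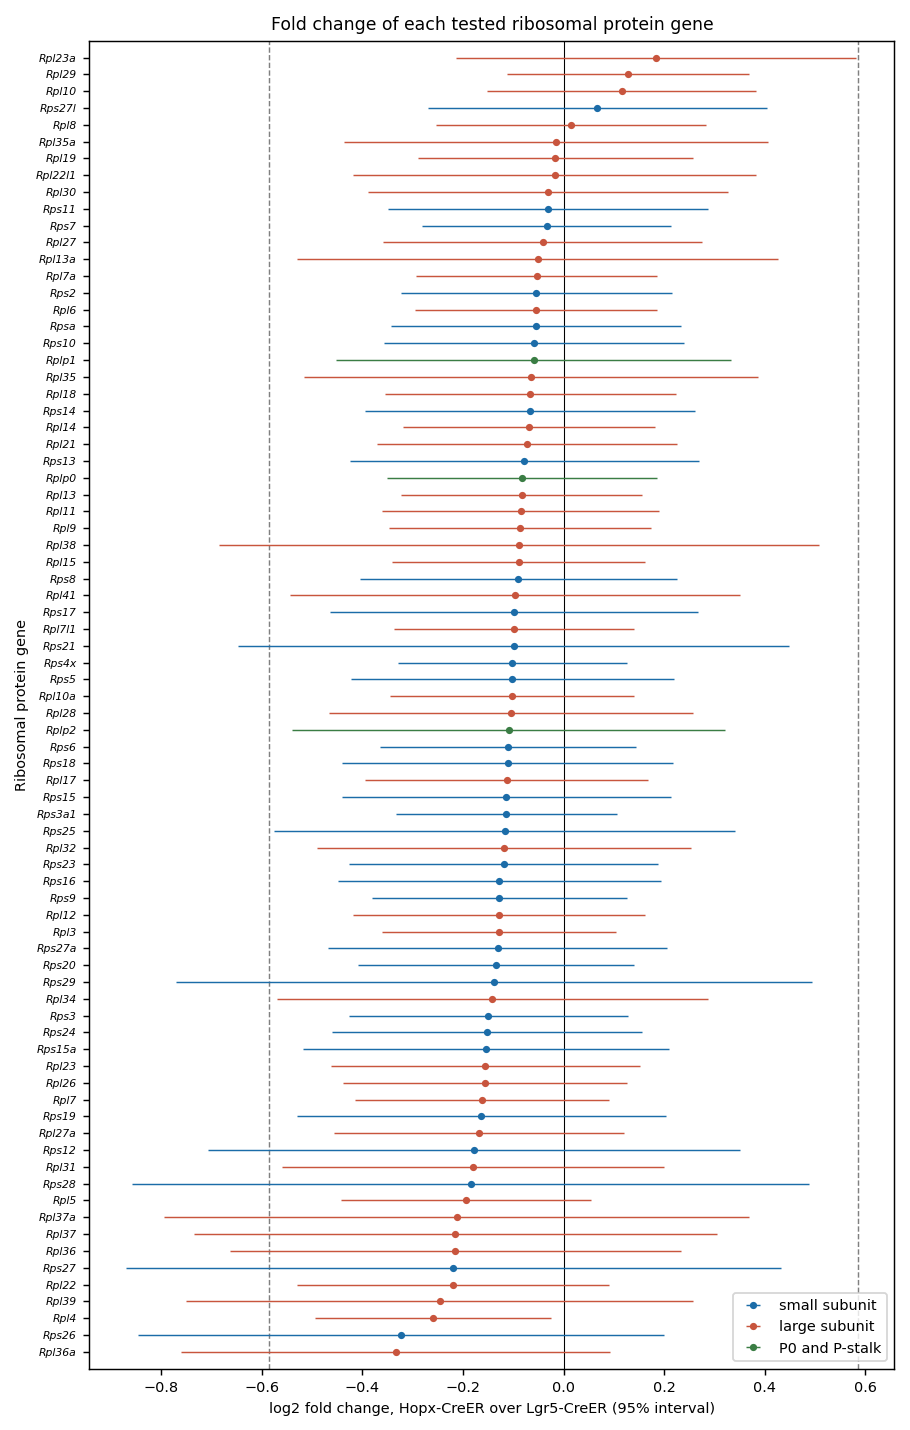
Log2 fold change (horizontal axis, positive where Hopx-CreER is higher) of 78 tested ribosomal protein genes (vertical axis, ordered by value), with 95% intervals as horizontal lines and colours for the subunit. Dashed lines mark a 1.5-fold change; 66 intervals lie between them, and 73 points lie below 0.

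Small subunit genes had a median log2 fold change of -0.11, with 31 of 32 below 0. Rps26, which lies at the messenger RNA exit channel, was at 91.2, 127 and 83.0 CPM in Hopx-CreER libraries 1 to 3 and at 172, 100.4 and 104 CPM in Lgr5-CreER libraries 1 to 3. Lgr5-CreER library 1 stood above the others, and Hopx-CreER library 2 lay above the lower Lgr5-CreER libraries, so the groups overlapped. Its log2 fold change was -0.32 ± 0.23 (SE; edgeR adjusted p = 0.407). Rps27, a zinc-finger protein of the small subunit, was at 98.4, 191 and 113 CPM in Hopx-CreER and at 221, 129 and 119 CPM in Lgr5-CreER libraries, with a log2 fold change of -0.22 ± 0.29. The same libraries were high for it, and again the groups overlapped.

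Among other small subunit genes, Rps6 was at 345, 395 and 406 CPM in Hopx-CreER and at 447, 375 and 415 CPM in Lgr5-CreER libraries, a log2 fold change of -0.11 ± 0.11 (SE). Rps19, the gene most often mutated in Diamond-Blackfan anaemia, was at 387, 549 and 428 CPM against 609, 457 and 462 CPM (-0.16 ± 0.16). Both sets of values overlapped between the groups. Rpsa, also known as the laminin receptor, had a log2 fold change of -0.06 ± 0.13, and the X-linked Rps4x one of -0.10 ± 0.10. Rps27a, which encodes a fusion of ubiquitin and a ribosomal protein, was at -0.13 ± 0.15. Rps27l was the sole small subunit gene with a positive value, 0.07 ± 0.15.

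Large subunit genes had a median log2 fold change of -0.09 over the 44 tested, with 40 below 0. Rpl4, which lines the peptide exit tunnel, was at 1232, 1257 and 1095 CPM in Hopx-CreER libraries and at 1390, 1408 and 1492 CPM in Lgr5-CreER libraries. Every Hopx-CreER value lay below every Lgr5-CreER value, the sole case in that direction. The means were 1195 ± 87.3 and 1430 ± 54.3 CPM (SD, n = 3 libraries each), a log2 fold change of -0.26 ± 0.10 (SE) with a 95% interval of -0.49 to -0.02. Its edgeR adjusted p was 0.145, above the threshold.

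Rpl36a, on the X chromosome, had the lowest log2 fold change, -0.33 ± 0.19 (SE; edgeR adjusted p = 0.293). It was at 66.1, 97.2 and 73.6 CPM in Hopx-CreER and at 124, 86.6 and 87.8 CPM in Lgr5-CreER libraries, and Hopx-CreER library 2 overlapped the Lgr5-CreER range. Rpl39, another protein of the exit tunnel, was at -0.25 ± 0.22, and Rpl22, which also binds RNA outside the ribosome, at -0.22 ± 0.14. Rpl5 and Rpl11, which with 5S RNA bind and inhibit MDM2 when ribosome assembly fails, were at -0.19 ± 0.11 and -0.09 ± 0.12. Rpl5 was at 294, 355 and 306 CPM in Hopx-CreER and at 378, 341 and 373 CPM in Lgr5-CreER libraries, again with Hopx-CreER library 2 inside the range of the other group.

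The highest log2 fold changes were also those of large subunit genes. Rpl23a, which sits at the tunnel exit, was at 22.4, 22.7 and 27.1 CPM in Hopx-CreER and at 22.0, 19.8 and 21.7 CPM in Lgr5-CreER libraries, so the groups did not overlap, although their nearest values almost met. Its log2 fold change was 0.18 ± 0.18 (SE; edgeR adjusted p = 0.542). Rpl29 was at 282, 302 and 344 CPM against 286, 280 and 284 CPM (0.13 ± 0.11), and the X-linked Rpl10 at 498, 631 and 628 CPM against 551, 518 and 552 CPM (0.12 ± 0.12). In both, Hopx-CreER library 1 was the lowest of its group and lay inside or below the Lgr5-CreER range, so the groups overlapped. Rpl8 (0.02 ± 0.12) and Rpl35a (-0.02 ± 0.19) stood nearest to 0 among the named genes.

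The P-protein genes lay close to 0 in log2 fold change. Rplp0 was at 1465, 1604 and 1723 CPM in Hopx-CreER and at 1791, 1496 and 1788 CPM in Lgr5-CreER libraries, a log2 fold change of -0.08 ± 0.12 (SE). Rplp1 was at -0.06 ± 0.17 and Rplp2 at -0.11 ± 0.19, and all 3 intervals lay within 1.5-fold.

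**Figure D2:**
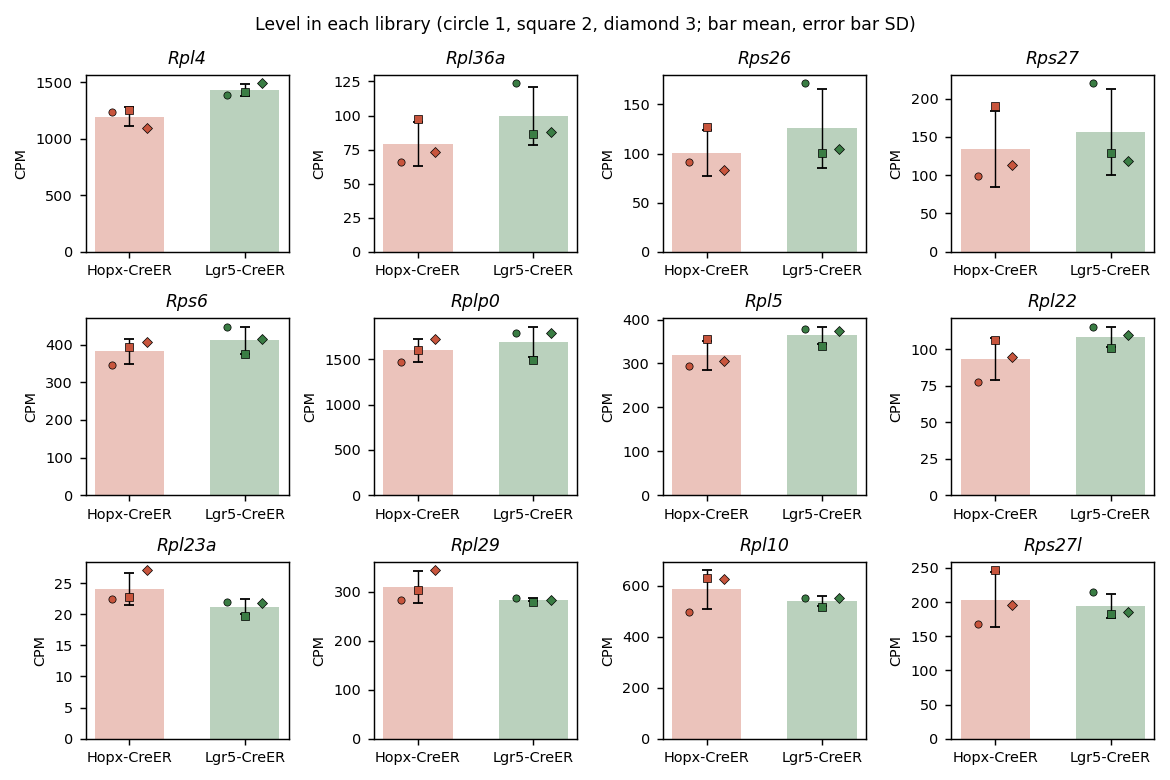
Level in CPM (vertical axes, from 0) of 12 ribosomal protein genes in each library; bars are group means, error bars SD over 3 libraries, and symbols mark library 1 (circle), 2 (square) and 3 (diamond). Lgr5-CreER library 1 and Hopx-CreER library 2 are high for Rps26 and Rps27, and the groups are apart for Rpl4.

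As a share of all counts, the 81 genes took 2.26%, 2.82% and 2.55% of Hopx-CreER libraries 1 to 3 and 3.20%, 2.78% and 2.88% of Lgr5-CreER libraries 1 to 3. Hopx-CreER library 2 exceeded Lgr5-CreER library 2, so the groups overlapped. The means were 2.54% ± 0.28 and 2.95% ± 0.22 (SD, n = 3 libraries each), a difference of -0.41 percentage points. Without Hopx-CreER library 1 the difference was -0.27, and without Hopx-CreER library 2 it was -0.55 percentage points. Small subunit genes took 1.04% ± 0.13 against 1.20% ± 0.11, and large subunit and P-protein genes 1.51% ± 0.15 against 1.75% ± 0.10.

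The libraries of a group differed from each other in a way that most ribosomal protein genes shared. Lgr5-CreER library 1 was the highest of the 6 libraries for 62 of 79 genes, and Hopx-CreER library 1 the lowest for 74. The median deviation of the 79 genes from their own mean log2 CPM was -0.26, 0.15 and -0.04 in Hopx-CreER libraries 1 to 3 and 0.21, -0.08 and -0.00043 in Lgr5-CreER libraries 1 to 3. The spread between libraries of 1 group was therefore wider than the median difference between groups. Without Hopx-CreER library 1 the median log2 fold change of the 79 genes was 0.01 with 36 below 0, and without Lgr5-CreER library 1 it was -0.01 with 44 below 0. Without Hopx-CreER library 2 it was -0.21 with 76 below 0, and without both Lgr5-CreER library 1 and Hopx-CreER library 2, an omission chosen after seeing the data, it was -0.11 with 73 below 0. The predominance of negative values was thus lost without either library numbered 1 and kept under the joint omission.

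The size of that library deviation followed the length of the coding sequence. Across the 79 genes, which share the libraries and are not independent, Spearman's rho between deviation and coding length was 0.70, -0.86 and 0.68 in Hopx-CreER libraries 1 to 3 and -0.79, 0.34 and 0.78 in Lgr5-CreER libraries 1 to 3. The 27 shortest genes, of 75 to 399 coding bases, had median deviations of -0.31, 0.30 and -0.19 in Hopx-CreER and 0.42, -0.11 and -0.07 in Lgr5-CreER libraries. The 27 longest, of 576 to 1257 coding bases, had -0.20, 0.03 and 0.04 against 0.12, -0.05 and 0.08. The short genes thus spread widely between libraries of both groups, and the long genes varied less. The median coefficient of variation was 23.3% in Hopx-CreER and 21.5% in Lgr5-CreER libraries for the short genes, and 9.07% and 6.32% for the long genes.

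**Figure D3:**
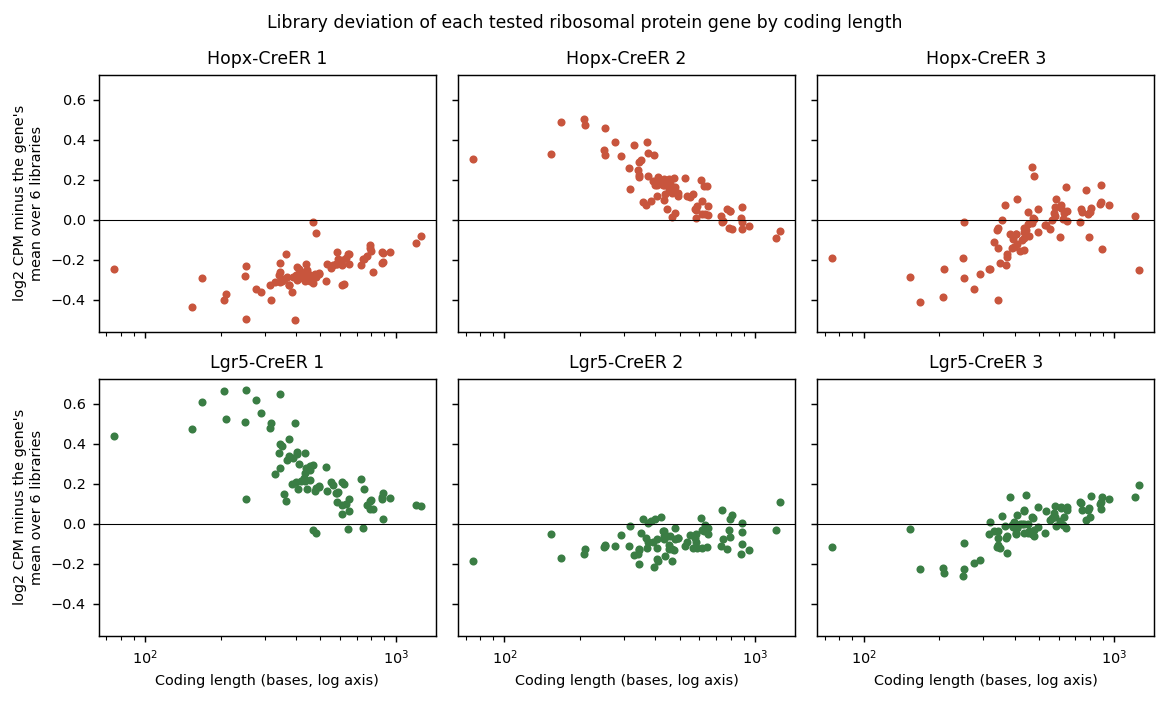
Deviation of each tested ribosomal protein gene from its mean log2 CPM over the 6 libraries (vertical axes) by coding length in bases (horizontal log axes), 1 panel per library. Short genes are low in Hopx-CreER libraries 1 and 3 and high in Hopx-CreER library 2 and Lgr5-CreER library 1, and the deviations narrow with length.

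Other protein-coding genes of the same lengths gave a different set of values. For 606 other genes of 75 to 399 coding bases, the median deviations were -0.08, 0.24 and 0.12 in Hopx-CreER and 0.01, -0.16 and -0.09 in Lgr5-CreER libraries. Their median log2 fold change was 0.15, while that of the 27 short ribosomal protein genes was -0.14. For 3809 other genes of 576 to 1257 coding bases it was 0.05, against -0.09 for the 27 long ribosomal protein genes. Ribosomal protein genes therefore lay below other genes of their length in median log2 fold change in both length classes.

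Allowing for length changed the calls. With an offset for each library fitted on transcript length over all genes, 17 of 79 ribosomal protein genes were lower in Hopx-CreER cells and 0 higher by edgeR at an adjusted p of 0.05, where 6.03% of all genes were lower and 8.07% higher. The median log2 fold change of the 79 was then -0.36, against -0.10 for all genes. With offsets on coding length, an alternative chosen after seeing the data, 9 were lower and 0 higher, where 5.75% of all genes were lower and 8.21% higher, and the median was -0.32, against -0.11 for all genes. Rpl4, Rpl22, Rpl26, Rpl27a and Rpl36a were the 5 genes called under both, of 17 and 9. Under the coding length offsets Rpl36a was at -0.62 ± 0.15 (SE; edgeR adjusted p = 0.0286) and Rpl4 at -0.37 ± 0.10 (edgeR adjusted p = 0.0368).

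The calls under coding length offsets were checked without 2 libraries, Hopx-CreER library 1 and Lgr5-CreER library 1; those under transcript length offsets were not. With coding length offsets and without Hopx-CreER library 1, 1 gene, Rpl41, was called lower and 0 higher by edgeR. Of all genes 3.75% were lower and 6.62% higher there. The median of the 79 was -0.27 with 78 below 0, against a median of -0.10 for all genes. Without Lgr5-CreER library 1, 0 were called lower and 0 higher by edgeR, where 2.17% of all genes were lower and 4.48% higher. The median was -0.25 with 79 of 79 below 0, against a median of -0.10 for all genes. With coding length offsets the median of the ribosomal protein genes thus stayed below 0 without either library, while most or all of the 9 calls were lost. Being fitted over all genes in each library, these offsets also take up group differences shared by genes of a length. With them, the median log2 fold change of other protein-coding genes of 75 to 399 coding bases moved from 0.15 to -0.15. The negative sign under offsets is therefore no separate check of the direction without them. Offsets on transcript GC content gave 1 lower call, Rpl13, and 0 higher, where 8.79% of all genes were lower and 8.55% higher. Library totals alone, without TMM, gave 1 lower call, Rpl4, and 0 higher, where 5.86% of all genes were lower and 7.54% higher. Which of the scalings with and without a length term gives the true level was not tested.

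Paralogue pairs of ribosomal proteins were compared as the log2 ratio of the paralogue to its parent gene in each library. Of the 8 pairs listed, 5 had both genes tested. With 3 libraries against 3, an exact two-sided permutation test cannot give a p below 0.1, and p-values were adjusted over the 5 pairs. Rpl36al, which encodes a protein nearly identical to that of Rpl36a, exceeded its parent by 0.73, 0.58 and 0.81 in Hopx-CreER and by 0.08, 0.38 and 0.35 in Lgr5-CreER libraries. All Hopx-CreER ratios lay above all Lgr5-CreER ratios, with a difference of 0.43 (exact p = 0.1, adjusted 0.25). The difference was between 0.34 and 0.50 when each library was left out in turn.

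Rpl22l1, whose protein can take the place of RPL22 in the ribosome, was below Rpl22 in every library. The log2 ratios were -2.0, -2.21 and -2.04 in Hopx-CreER and -2.28, -2.27 and -2.33 in Lgr5-CreER libraries, again without overlap, with a difference of 0.21 (exact p = 0.1, adjusted 0.25). Rps27l, a target of the tumour suppressor p53, was above Rps27 in 5 of 6 libraries, with ratios of 0.77, 0.37 and 0.79 against -0.04, 0.50 and 0.64. These overlapped (difference 0.28, exact p = 0.3, adjusted 0.3), and the difference was 0.07 without Lgr5-CreER library 1. Rpl7l1, a nucleolar assembly factor, lay below Rpl7 in both groups, with a mean log2 ratio of -0.96 in Hopx-CreER and -1.03 in Lgr5-CreER libraries (difference 0.07, exact p = 0.2, adjusted 0.3).

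Rps4l, which the annotation calls a pseudogene and which lies outside the 81, was at 91.0, 90.4 and 140 CPM in Hopx-CreER and at 136, 59.7 and 59.4 CPM in Lgr5-CreER libraries. Its ratio to Rps4x differed by 0.52 (exact p = 0.3, adjusted 0.3), and Lgr5-CreER library 1 stood apart from the other libraries of its group. No pair passed the threshold, which this design cannot reach.

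**Figure D4:**
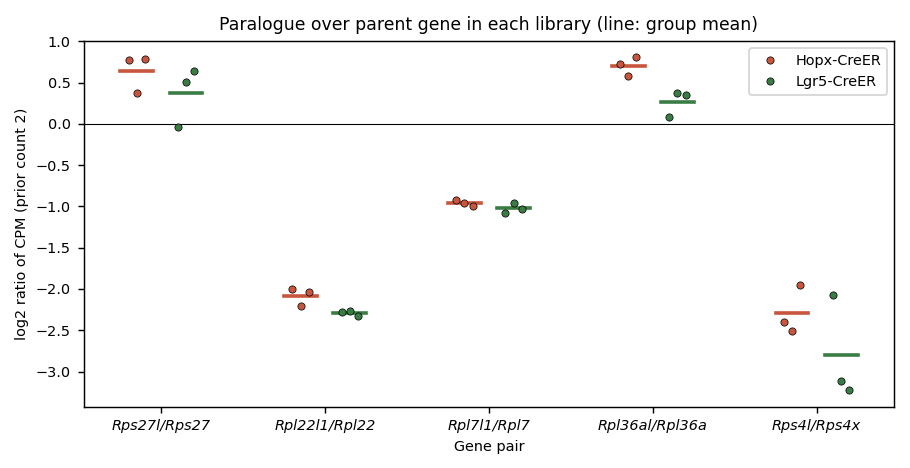
Log2 ratio of CPM of a paralogue to its parent gene (vertical axis) in each library, for 5 pairs; points are libraries and lines group means. The groups are apart for Rpl36al over Rpl36a and for Rpl22l1 over Rpl22, and overlap for the other pairs.

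Ribosomal proteins that carry other names were not called either. Of Fau, Rack1 and Rpl36al, 0 of 3 were higher or lower by edgeR, against 12.8% of all genes. An unadjusted p under 0.05 was found for 0 of 3, against 27.3% of all genes. Fau, which encodes a ubiquitin-like fusion with a small subunit protein, was at 0.22 ± 0.15 (SE), and Rack1, a scaffold on the small subunit, at -0.07 ± 0.12.

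Mitochondrial ribosomal proteins, which are made in the cytosol but form the separate ribosome of the mitochondrion, gave 0 of 77 calls in either direction by edgeR, with 4 at an unadjusted p under 0.05. Of all tested genes 12.8% were called and 27.3% had an unadjusted p under 0.05. Their median log2 fold change was 0.14, with 12 of 77 below 0, against -0.10 and 74 of 79 for the cytosolic genes. The groups did not overlap for 11 in the higher and 1 in the lower direction, where 18.8% and 16.2% of all genes did not. With offsets on coding length their median was -0.05, against -0.32 for the cytosolic genes. The cytosolic genes thus had the lower median under both scalings, although the sign for the mitochondrial genes turned. The difference between the lists was not tested. With coding length offsets 1 mitochondrial gene was called by edgeR, where 5.75% of all genes were lower and 8.21% higher. The filter of at least 1 CPM in 3 libraries gave 1 such call, where 1174 of 11980 genes were higher and 405 lower. Leaving out Hopx-CreER library 1 gave 2, where 1036 of 12714 genes were higher and 399 lower.

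**Figure D5:**
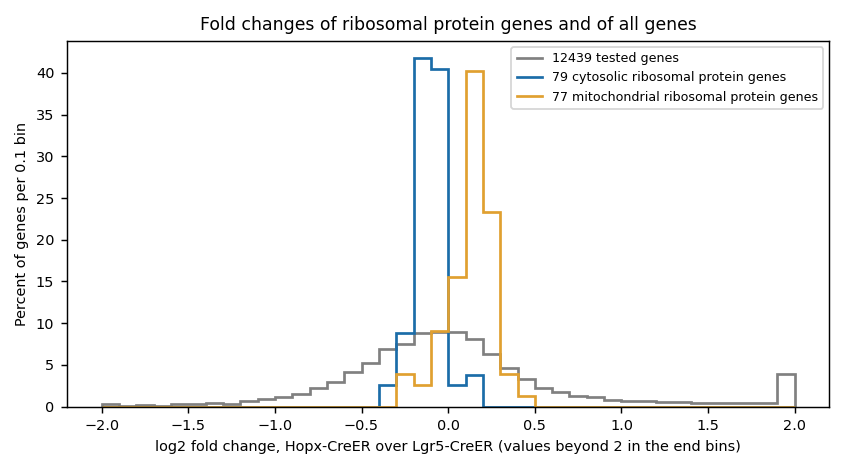
Percent of genes (vertical axis) per bin of log2 fold change (horizontal axis, positive where Hopx-CreER is higher), for 12439 tested genes, 79 cytosolic and 77 mitochondrial ribosomal protein genes. Cytosolic genes gather just below 0, with a median of -0.10, mitochondrial ones just above, with a median of 0.14, and both are narrower than all genes.

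A list of 19 elongation factors and other messages, many of which carry a TOP motif, gave 1 call lower in Hopx-CreER cells and 0 higher. Of all genes 3.3% were lower and 9.45% higher. The median log2 fold change of the 19 was -0.11. Hnrnpa1, an RNA-binding splicing factor with a TOP message, fell from 215, 199 and 213 CPM in Lgr5-CreER to 164, 142 and 129 CPM in Hopx-CreER libraries (-0.53 ± 0.12, SE; edgeR adjusted p = 0.0189). Hnrnpa1 was called in 17 of 24 settings, counting the main one. Among other settings, the call was lost when Hopx-CreER library 2 or any single Lgr5-CreER library was left out. It was also lost when the columns that share a number were summed, and with GC content offsets (-0.41, edgeR adjusted p = 0.0512). Pabpc1, the poly(A)-binding protein, was at -0.70 ± 0.21 (adjusted p = 0.0647) and Eif4b, a helicase cofactor, at -0.32 ± 0.11 (adjusted p = 0.0909). The elongation factor Eef1a1 was at 2892, 2882 and 2636 CPM in Hopx-CreER and 3278, 3059 and 3423 CPM in Lgr5-CreER libraries, without overlap (-0.21 ± 0.11, adjusted p = 0.23), while Eef2 was at 0.02 ± 0.12. Eef1a1 and Eef2 were picked out after their values were seen.

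Among RNA polymerase I and MYC genes, 1 of 14 was called, lower, and 0 higher, where 3.3% of all genes were lower and 9.45% higher. Myc fell from 289, 308 and 322 CPM in Lgr5-CreER to 210, 202 and 136 CPM in Hopx-CreER libraries, without overlap (-0.74 ± 0.16, SE; edgeR adjusted p = 0.0167). It was called in 20 of 24 settings, counting the main one. The settings without the call included those without Lgr5-CreER library 2 or 3 and the sum of the columns that share a number. Polr1a, the largest subunit of RNA polymerase I, was at -0.66 ± 0.19 (adjusted p = 0.0525), and Mycn, a relative of Myc, at 1.07 ± 0.35 (adjusted p = 0.0754). The median of the 14 was -0.27.

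The lists of mTORC1 and TOP regulators, chaperones and surveillance, promoter factors and snoRNA hosts held no call in either direction by edgeR. For scale, 12.8% of all tested genes were called and 27.3% had an unadjusted p under 0.05. For 20 mTORC1 and TOP regulators the median log2 fold change was -0.13, with 1 at an unadjusted p under 0.05: Ddit4, an inhibitor of mTORC1 that responds to stress, at -0.71 ± 0.21 (SE; adjusted p = 0.0551). For 16 ribosomal protein chaperones and surveillance genes it was -0.21, with 3 at an unadjusted p under 0.05, among them Rrs1, a factor in 5S particle assembly, at -0.34 ± 0.12 (adjusted p = 0.0963). For 8 promoter factors it was -0.21, with 1 at that level, Tbp, the TATA-binding protein, at -0.43 ± 0.14 (adjusted p = 0.0809). For 9 snoRNA host genes it was -0.07, with 0 at that level. Of the 10 Rps6k kinases, which the symbol rule leaves out, 1 was called, higher, where 9.45% of all genes were: Rps6ka2 rose from 1.87, 1.64 and 2.0 CPM in Lgr5-CreER to 5.42, 3.81 and 4.92 CPM in Hopx-CreER libraries (1.35 ± 0.33, edgeR adjusted p = 0.0272). It had only 19 to 72 counts per library, and its call was not followed through the alternatives. Rps6ka6 went the other way without a call (-2.27 ± 0.74, edgeR adjusted p = 0.0795).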

How the data were processed

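The authors deposited 1 table of raw counts, whole numbers per mouse Ensembl gene in 6 columns, with no normalization. Per the labels' protocols, RNA was amplified by SMART-Seq and tagged with Nextera XT, which do not mark strand. Named without roles, per the submitters' processing notes, are kallisto, edgeR and GRCh38; GRCh38 is a human build, and how reads were counted is not given in the sources used. Columns name the gate but no replicate, so libraries are numbered by column order, as names only. The column name of Hopx-CreER library 3 carries an extra tag that the labels used do not explain.

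Identifiers were matched without version to GENCODE M21 (GRCm38; 23479 of 23565). Coding length came from 1 transcript per gene: the principal isoform, then the best support, then the lowest number. Copies were found with blastn 2.17.0. Groups were compared with the edgeR 4.0.16 quasi-likelihood test in R 4.3.3: TMM, filterByExpr, and Benjamini-Hochberg adjustment over 12439 genes at 0.05. SEs came from the F statistics. Log ratios used a prior count of 2. The procedure was tested on simulated data. Alternatives covered scaling, filters, DESeq2 1.42.0, limma-voom (limma 3.58.1), offsets for GC content and length (splines with 5 degrees of freedom), copies, and each library left out.

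Members, lists and tests were chosen with earlier results of these data known. Named genes are a set list and the paralogue pairs, the 6 highest and 6 lowest fold changes at a mean of at least 10 CPM, the 5 highest and 5 lowest levels per length, and up to 3 genes per related list. Levels were ranked per coding length in place of transcript length. Amplified reads are not independent molecules. Some named genes are not reported here.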

Additional observations from a re-analysis of the deposited data

How the results depend on the processing

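No ribosomal protein gene was called in either direction under RLE or upper quartile factors, TMM without ribosomal protein and mitochondrial genes, other count filters, DESeq2, limma-voom, a threshold of 0.01, added pseudogene or copy counts, the sum of the columns that share a number, or any library left out without offsets. The exceptions were all lower in Hopx-CreER cells: 1 with library totals alone (Rpl4, edgeR adjusted p = 0.0408), 1 with GC content offsets (Rpl13, adjusted p = 0.0476), 17 with transcript length offsets and 9 with coding length offsets, which fell to 1 without Hopx-CreER library 1. The median log2 fold change was -0.36 with transcript length and -0.32 with coding length offsets, and otherwise ran between -0.27 and 0.01; leaving out each library in turn gave -0.21 to 0.01, and with coding length offsets it was -0.27 without Hopx-CreER library 1 and -0.25 without Lgr5-CreER library 1, the 2 omissions run there. Of 33 named genes of the 81, 19 changed sign under at least 1 alternative. Copies, the joint omission of Lgr5-CreER library 1 and Hopx-CreER library 2, and everything with coding length offsets were chosen after seeing the data.

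Over all genes, calls split into 1176 higher and 410 lower, against 1063 and 1092 with GC content offsets, 1003 and 749 with transcript length offsets, 944 and 661 with coding length offsets, and 938 and 729 with library totals alone, which moved the median of all genes from -0.03 to -0.15. Relative to that median, ribosomal protein genes stood at -0.07 under both TMM and library totals. Of the related genes just above the threshold, Ddit4 was called lower in 9 of 24 settings (adjusted p 0.0124 to 0.191), Pabpc1 in 9 (0.00696 to 0.169) and Polr1a in 7 (0.0179 to 0.447). The 24 settings count the main one, which called none of these genes. No paired analysis was possible because the columns carry no replicate number, so the replicate block was not run. The cause of these differences was not tested. Precision was limited by the spread between libraries, most for short genes.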
